A study of Mus musculus with 6 samples.

Results

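The core genes of cAMP and protein kinase A (PKA) signalling, from the G proteins to the kinase, were followed in epididymal white adipose tissue of mice on a high-fat diet. The 10 genes were chosen by symbol, and 10 of 10 were among the 13116 genes of the deposited table and among the 12847 genes tested. HuRAKO mice carry HuR flox/flox alleles together with AdipoQ-Cre, a Cre recombinase driven by the adiponectin promoter, which is active in adipocytes. Control mice carry the same HuR flox/flox alleles without Cre. There were 3 HuRAKO and 3 control mice, and all 6 received the diet for 16 weeks from 8 weeks of age. The other cells of the tissue keep HuR in both groups, and the tissue was sequenced whole. HuRAKO and control are used below as the labels of the libraries.

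When a hormone such as noradrenaline binds a beta-adrenergic receptor on an adipocyte, the stimulatory G protein activates adenylyl cyclase, which makes cAMP, and inhibitory G proteins counteract it. cAMP binds the regulatory subunits of PKA and frees the catalytic subunits, which phosphorylate hormone-sensitive lipase and perilipin and so start lipolysis. Phosphodiesterases end the signal by degrading cAMP. HuR, encoded by Elavl1, is an RNA-binding protein that recognises AU-rich elements in the 3′-UTR of its target mRNAs. The comparison asks whether the mRNAs of the pathway differ between fat with and without adipocyte HuR.

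None of the 10 genes passed a test between HuRAKO and control fat. The count was 0 at an adjusted p under 0.05 and also 0 at an unadjusted p under 0.05 (limma on log2(FPKM + 1), Benjamini-Hochberg over all genes tested), and 0 at an unadjusted p under 0.05 with a fold over 1.5. Over all genes tested these 3 rules called 0.00778% (1 gene, and 0 with the replicate block), 8.03% and 2.62%. The adjusted p of the 10 genes lay between 0.706 and 0.988, and their log2 fold changes between -0.02 for Gnas and 0.50 for Prkar2b. The median log2 fold change was 0.09 over the 10 genes and -0.01 over all genes tested. What did stand out were the low levels of several of the 10 genes in control replicate 3 and a different split of the Gnas and Gnai2 transcripts between mice. The first was in a single mouse, and slight for some genes. The second was in mice of both genotypes. It rests on transcript estimates, in which a listed 0 can be a failed estimate.

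FPKM is the number of fragments scaled to the length of the gene and to the fragments sequenced, a level per length. Levels of genes were compared on it here. By the mean over the 6 mice the order was Gnai1 (120 FPKM), Prkar2b (89.1), Gnai2 (88.4), Prkar1a (76.3), Pde3b (62.0), Prkaca (51.4), Gnas (46.6), Adcy6 (24.4), Prkacb (12.2) and Prkar2a (11.2). In gene FPKM the ranges of Gnas and Adcy6 over the 6 mice did not overlap, nor did those of Adcy6 and Prkacb. All other neighbours in this order overlapped, and Prkar2b was above Gnai2 in 3 of 6 mice, as Prkaca was above Gnas in 3 of 6 mice. Within each mouse, however, Gnai1 was above Prkar2b and Gnai2 was above Prkar1a in 6 of 6. The order is that of the gene values only. Summed over the listed transcripts, Prkacb was at 24.8 to 27.4 FPKM, above Adcy6 at 6.29 to 16.8 FPKM. Gnas was at 145 to 243 FPKM by that sum.

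**Figure D1:**
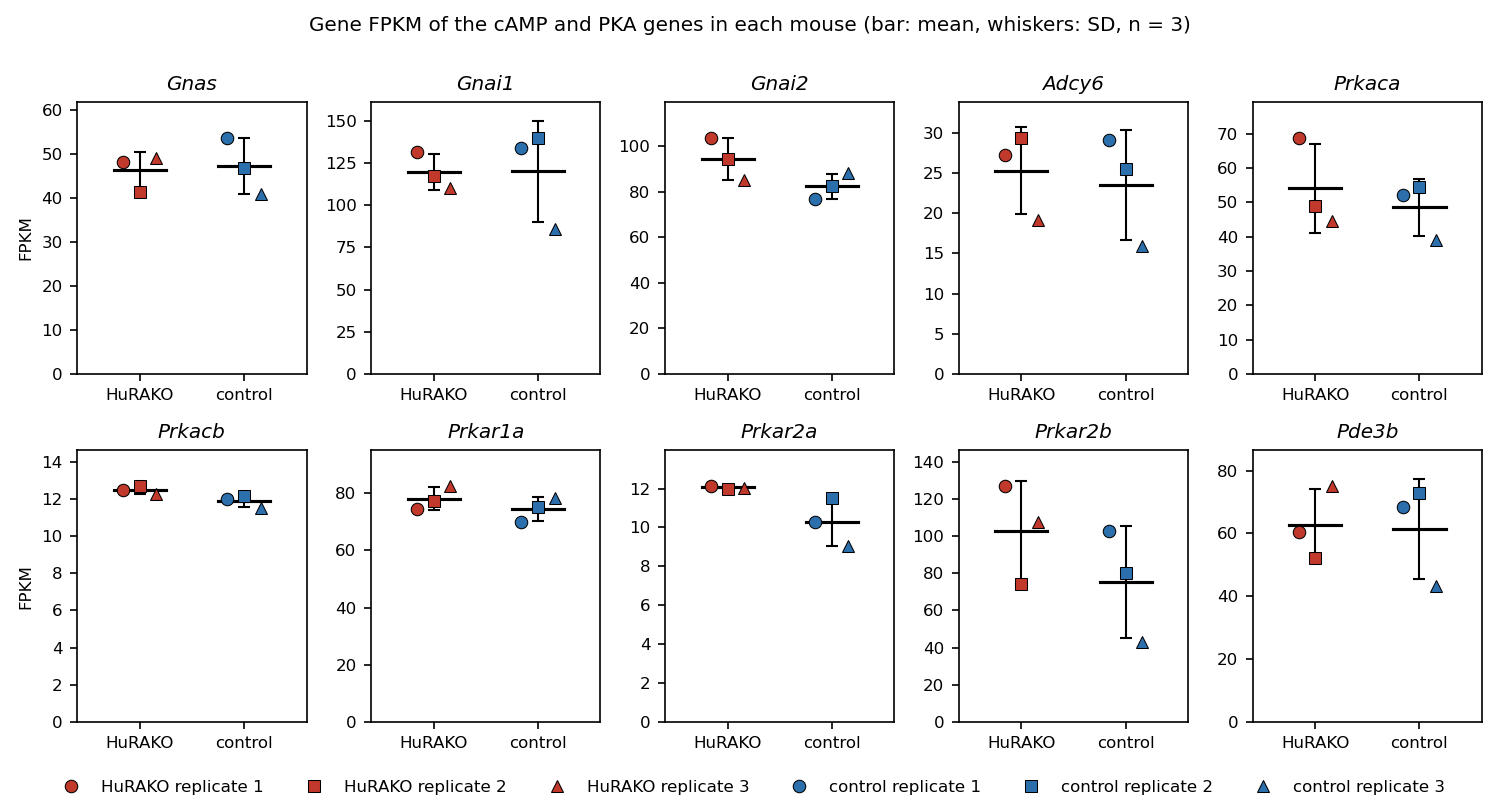
Gene FPKM of the 10 genes (y axis, linear and from 0) in HuRAKO mice (left, red) and control mice (right, blue), with 1 point per mouse, the mean as a bar and the SD as whiskers. The groups overlap for 8 genes, and the triangle of control replicate 3 is the lowest point for 8 genes.

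Of the 10 mRNAs, 8 hold a longer AU-rich element in the longest annotated 3′-UTR of their gene, here ATTTA with 2 bases on each side that are each A or T. The stretches are shown because such elements are the sequences HuR recognises, and the ATTTA is in capitals. They read in the direction of the mRNA, in GENCODE M21 on GRCm38.
Gnas, chr2:174346394-174346418, plus strand: gaacacccaaATTTAattcagcctt
Gnai1, chr5:18266106-18266130, minus strand: ccactgttttATTTAtaatgaagtt
Adcy6, chr15:98590019-98590043, minus strand: tcagtgaaatATTTAatatATTTAa
Prkacb, chr3:146732242-146732266, minus strand: gctgtgtgatATTTAaaaggaaagc
Prkar1a, chr11:109669133-109669157, plus strand: ctttttttatATTTAaaaaaataaa
Prkar2a, chr9:108750073-108750097, plus strand: cattgtaataATTTAaaaaaaaacc
Prkar2b, chr12:31958502-31958526, minus strand: tgttggttatATTTAaattttcctt
Pde3b, chr7:114537787-114537811, plus strand: taggtaccatATTTAatgaatcact
The plain ATTTA, which every longer element contains, was found on the mRNA strand in the 3′-UTR of all 10 genes, against 69.8% of the 12706 tested genes with a 3′-UTR. The longer element was in 8 of 10, all but Gnai2 and Prkaca, against 36.6% of those genes. The 3′-UTRs of the 10 genes were also long, 997 to 3442 bases with a median of 1984, against a median of 1161 over all genes. Among the 5535 genes with a 3′-UTR in that range of lengths, 87.7% held ATTTA and 47.3% held the longer element. The 3′-UTRs of Gnai1 and Pde3b held 13 and 12 ATTTA, the most of the 10 genes. The Adcy6 stretch lies in Adcy6-201, a transcript at a mean of 1.14 FPKM. Adcy6-205, the Adcy6 transcript with the highest mean at 9.10 FPKM, ends at 98592144 and does not reach that stretch. The Gnas 3′-UTR searched, of 1444 bases, is that of Gnas-211. Gnas-211 was at 6.02 FPKM in control replicate 1 and at most at 0.14 FPKM in the other mice. Its length and elements need not be those of Gnas-207, the Gnas transcript with the highest mean at 47.4 FPKM. A match is a description of letters, and binding of HuR to these stretches was not measured here.

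The deleted gene itself was measured first. Elavl1 (chromosome 8, 4285382 to 4325413) was at 4.66, 5.24 and 5.63 FPKM in HuRAKO mice, against 3.93, 4.85 and 4.98 FPKM in control mice. The groups overlap, and Elavl1 was not lower in HuRAKO fat (log2 fold change 0.15, SE 0.12, adjusted p = 0.807 from limma, exact permutation p = 0.3). The deletion is not visible in these whole-tissue gene values, and so this gene does not bear out the labels of the libraries. Every direction given here rests on those labels. What keeps Elavl1 from being lower was not tested.

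In whole tissue, fewer cells of a type and less RNA per cell cannot be told apart. All 12 adipocyte markers were listed, with Adipoq, Plin1 and Fabp4 among them, and their summed level was 8210 to 9772 FPKM in HuRAKO mice and 7136 to 9867 FPKM in control mice. The lowest sum was that of control replicate 3, in which 8 of the 12 were at their lowest. Macrophage markers, 15 of 15 listed and 0 of them at 0 in all mice, summed to 1265 to 2028 FPKM in HuRAKO mice and 1141 to 3346 FPKM in control mice, and all 15 were at their highest in control replicate 3. Endothelial markers summed to 280 to 377 FPKM in HuRAKO mice and 182 to 228 FPKM in control mice. Smooth muscle and pericyte markers summed to 307 to 477 FPKM in HuRAKO mice and 177 to 237 FPKM in control mice. The median log2 level of the smooth muscle and pericyte markers, centred on the mean of all mice, did overlap between the groups. That median was 0.22, 0.58 and -0.45 in HuRAKO mice and -0.07, -0.17 and -0.37 in control mice, lowest in HuRAKO replicate 3. Mesothelial markers summed to 124 to 184 FPKM in HuRAKO mice and 222 to 350 FPKM in control mice. Of 9 epididymis markers 2 were listed, at a sum of at most 1.87 FPKM. Depth per mouse is unknown, since the tables hold no counts.

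Gnas (chromosome 2, 174284320 to 174346744) encodes the alpha subunit of the stimulatory G protein. It was measured at 48.1, 41.4 and 49.1 FPKM in HuRAKO mice, against 53.6, 46.8 and 40.9 FPKM in control mice. Both the highest and the lowest mouse were controls, and every HuRAKO value lay between them (log2 fold change -0.02, SE 0.14, 95% interval -0.35 to 0.31, adjusted p = 0.982 from limma).

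Gnai1 and Gnai2 encode inhibitory alpha subunits. Gnai1 (chromosome 5, 18265135 to 18360355) was at 131, 118 and 110 FPKM in HuRAKO mice, against 134, 140 and 85.9 FPKM in control mice. The control mice alone span the whole range of the gene, and the log2 fold change was 0.02 (95% interval -0.47 to 0.52). Gnai2 (chromosome 9, 107614125 to 107635367) was at 104, 94.3 and 85.1 FPKM in HuRAKO mice, against 76.9, 82.4 and 88.0 FPKM in control mice. Only HuRAKO replicate 3 fell within the control range, below control replicate 3, so the groups overlap (log2 fold change 0.19, SE 0.12, 95% interval -0.09 to 0.47, adjusted p = 0.754 from limma). Gnai2 was not at its lowest in control replicate 3. The level of Gnas over the summed level of Gnai1 and Gnai2 was 0.204, 0.195 and 0.251 in HuRAKO mice and 0.254, 0.210 and 0.235 in control mice, which overlap (exact permutation p = 0.5, 0.667 adjusted over 4 ratios).

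Adcy6 encodes an adenylyl cyclase that is inhibited by calcium and by inhibitory G proteins. Adcy6 (chromosome 15, 98589973 to 98610076) was at 27.3, 29.4 and 19.2 FPKM in HuRAKO mice, against 29.1, 25.5 and 15.9 FPKM in control mice. In both groups replicate 3 was well below the other mice, and the difference between genotypes was smaller than that spread (log2 fold change 0.12, SE 0.26, 95% interval -0.51 to 0.75). With the replicate block the SE was 0.12, the 95% interval -0.20 to 0.44 and the unadjusted p from limma 0.362.

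The catalytic subunits of PKA are encoded by Prkaca and Prkacb. Prkaca (chromosome 8, 83972993 to 83996443) was at 68.9, 49.0 and 44.5 FPKM in HuRAKO mice, against 52.3, 54.4 and 39.1 FPKM in control mice. HuRAKO replicate 1 was above all others, while the other HuRAKO mice lay inside the control range (log2 fold change 0.14, SE 0.21). Prkacb (chromosome 3, 146729574 to 146812990) was at 12.47, 12.71 and 12.25 FPKM in HuRAKO mice, against 11.97, 12.15 and 11.51 FPKM in control mice. Here every HuRAKO mouse was above every control mouse, by a mean of 0.07 on the log2 scale (SE 0.09, adjusted p = 0.880 from limma, exact permutation p = 0.1, the smallest that 3 mice against 3 allow). Prkacb was the steadiest of the 10 genes, with a coefficient of variation of 3.40% over the 6 mice. Prkaca made up 84.7, 79.4 and 78.4% of the summed catalytic level in HuRAKO mice and 81.4, 81.8 and 77.2% in control mice, with no separation of the groups (exact permutation p = 0.9).

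The regulatory subunits hold the kinase inactive until cAMP binds. Prkar1a (chromosome 11, 109649405 to 109669656), the type I alpha subunit, was at 74.5, 77.2 and 82.6 FPKM in HuRAKO mice, against 70.1, 75.3 and 78.2 FPKM in control mice. The groups overlap, although the HuRAKO mouse was higher in all 3 pairs of mice with the same number, and the log2 fold change was 0.07 (SE 0.10, 95% interval -0.18 to 0.31). With the replicate block the SE was 0.09 and the unadjusted p from limma 0.508. Prkar1a was, with Gnai2, one of the genes at their lowest in control replicate 1.

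Prkar2a (chromosome 9, 108689314 to 108750436), the type II alpha subunit, was at 12.146, 11.996 and 12.046 FPKM in HuRAKO mice, against 10.3, 11.5 and 9.03 FPKM in control mice. The HuRAKO mice were nearly identical and all above the controls, whose own spread was wider (12.1 ± 0.0764 FPKM and 10.3 ± 1.23 FPKM, mean ± SD, n = 3 each). The log2 fold change was 0.22 (SE 0.11, 95% interval -0.06 to 0.49), with an adjusted p = 0.706 from limma and an unadjusted p of 0.0998. Prkar2a and Prkacb were the genes whose groups did not overlap, 2 of 10, and among all genes tested 14.7% did not overlap, 7.04% with HuRAKO higher. Both genes had HuRAKO higher, so the like share is 7.04%, and a count of 2 among 10 genes is small.

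Prkar2b (chromosome 12, 31958476 to 32061296) encodes the type II beta subunit, the main regulatory subunit of mouse white fat. It was at 127, 74.4 and 107 FPKM in HuRAKO mice, against 103, 80.2 and 42.9 FPKM in control mice. It varied more than any other of the 10 genes (coefficient of variation 33.2%), and the groups overlap because HuRAKO replicate 2 was below control replicates 1 and 2. The log2 fold change of 0.50 (SE 0.35, 95% interval -0.35 to 1.35, adjusted p = 0.785 from limma) dropped to 0.14 without control replicate 3, its lowest mouse. It was 0.76 without control replicate 1 and 0.59 without control replicate 2. Prkar2b made up 59.4, 45.5 and 53.1% of the summed regulatory level in HuRAKO mice and 56.1, 48.1 and 33.0% in control mice (exact permutation p = 0.5). The regulatory over the catalytic level was 2.62, 2.65 and 3.56 in HuRAKO mice and 2.85, 2.51 and 2.57 in control mice. Only HuRAKO replicate 3 stood above the others (exact permutation p = 0.5, 0.667 adjusted over 4 ratios).

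Pde3b encodes the phosphodiesterase through which insulin lowers cAMP in adipocytes. Pde3b (chromosome 7, 114415281 to 114539251) was at 60.4, 52.0 and 75.1 FPKM in HuRAKO mice, against 68.3, 72.8 and 43.3 FPKM in control mice. The highest mouse was HuRAKO replicate 3 and the lowest control replicate 3, with the others mixed between them (log2 fold change 0.04, SE 0.24, 95% interval -0.52 to 0.61).

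**Figure D2:**
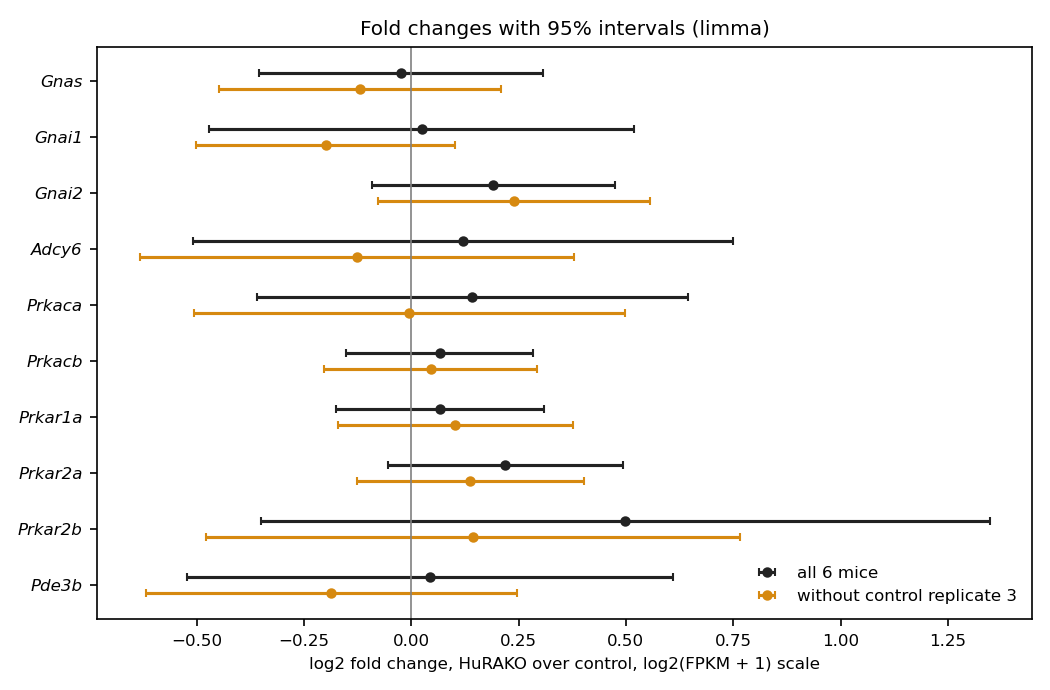
Log2 fold change of HuRAKO over control (x axis, on the log2(FPKM + 1) scale) of the 10 genes with 95% intervals from limma, with all 6 mice (black) and without control replicate 3 (orange). Every interval includes 0, and 9 genes are above 0 with all mice but 5 without control replicate 3. As 8 of the 10 genes are lowest in that mouse, leaving it out has to lower their fold changes.

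Most of the 10 genes were at their lowest in 1 mouse. Gnas, Gnai1, Adcy6, Prkaca, Prkacb, Prkar2a, Prkar2b and Pde3b were at their lowest in control replicate 3, 8 of 10 genes, as were 19.8% of all genes tested. Relative to the mean of the 6 mice, Prkar2b was at -0.96 in control replicate 3 on the log2 scale, Adcy6 at -0.55, Pde3b at -0.48 and Gnai1 at -0.46. Gnas was at -0.18 and Prkacb at -0.07 there. Gnai2 and Prkar1a, not at their lowest in that mouse, were at 0.00 and 0.04. The median of the adipocyte markers was at -0.39 in that mouse and that of the macrophage markers at 0.90. The part of cell composition in these values was not tested. With all mice, 9 of the 10 genes had the higher mean log2 level in HuRAKO fat. Without control replicate 3, 5 were higher and 5 lower, among them Gnai1 at -0.20, Pde3b at -0.19, Adcy6 at -0.13 and Prkaca at -0.00, and the median log2 fold change was 0.02, against 0.00 over all genes. Gnai2 was at 0.24, against 0.19 with all mice, and Prkar2a at 0.14, against 0.22 with all mice. Since 8 of the 10 genes were at their lowest in that mouse, leaving it out had to lower their fold changes. The turn in direction is thus no separate test. Relative to the adipocyte markers of each mouse, 8 of the 10 were higher and 2 lower, with Prkar2b at 0.47 and Prkar2a at 0.19. Neither setting gave a gene with an unadjusted p under 0.05, 0 of 10 in both. Without control replicate 1 instead, Gnas was at 0.07, Gnai1 at 0.12, Pde3b at 0.14, Adcy6 at 0.29 and Prkaca at 0.20. Without control replicate 2 these genes were at -0.02, 0.15, 0.18, 0.20 and 0.23. Gnai2 and Prkar1a, lowest in control replicate 1, were at 0.14 and 0.02 without it.

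**Figure D3:**
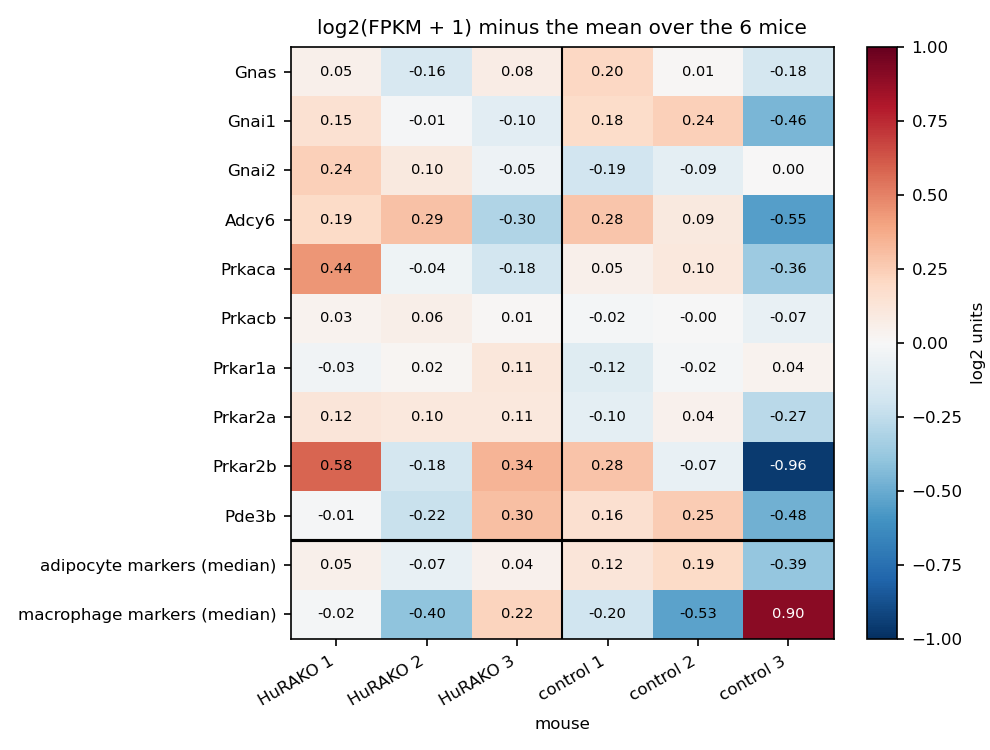
Log2(FPKM + 1) minus the mean over the 6 mice (colour and printed value, in log2 units) for the 10 genes and for the median of 12 adipocyte and 15 macrophage markers, with HuRAKO mice left of control mice. In the column of control replicate 3 Prkar2b is at -0.96, the adipocyte median at -0.39 and the macrophage median at 0.90.

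The genes whose levels over the 6 mice were most like those of Prkar2b were taken by the smallest root mean square difference of mean-centred log2 values. They were Kcnj15, a potassium channel (0.0872), Mme, the membrane protease neprilysin (0.1005), Hsd17b4, an enzyme of peroxisomal beta-oxidation (0.104), and Gcsh of the glycine cleavage system (0.168), against a median of 0.545 over all genes. Hsd17b4 was at 121, 86.7 and 105 FPKM in HuRAKO mice, against 102, 84.5 and 47.7 FPKM in control mice. Like Prkar2b it was lowest in control replicate 3 and overlapped between the groups, which its choice by likeness over these same mice makes likely. The likeness rests on 6 mice, and the smallest differences among all genes lie below the median by selection.

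At the level of transcripts, 32 of the 10 genes were listed and all 32 were tested. The count was 0 at an adjusted p under 0.05 and 0 at an unadjusted p under 0.05 (limma), where 0.0603% and 6.52% of the 23233 transcripts tested were called, and the lowest adjusted p was 0.768. The groups did not overlap for 1 of the 32, against 13.1% of all transcripts. This was Prkar2a-201, at 15.5, 15.3 and 14.9 FPKM in HuRAKO mice against 13.2, 14.1 and 11.2 FPKM in control mice (log2 fold change 0.24, adjusted p = 0.840 from limma). It is the main transcript of Prkar2a, and its lowest mouse was control replicate 3, as for the gene. Gnai1-201, Prkaca-201 and Pde3b-201 were the only listed transcripts of their genes and had the same order of mice as the genes. The main transcripts Prkacb-201, Prkar1a-201, Adcy6-205 and Prkar2b-202 overlapped between the groups, with log2 fold changes of -0.07, 0.09, 0.10 and 0.65.

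Gnas is a complex locus with several promoters, and its 12 listed transcripts start in 4 regions on chromosome 2. From the most upstream, these begin at 174284320 (2 transcripts), 174297859 (5), 174327768 (1) and from 174330006 to 174330287 (4, with the main transcript Gnas-207). The transcripts of the second start summed to 97.0, 0 and 103 FPKM in HuRAKO mice, against 95.2, 0 and 92.2 FPKM in control mice. All 5 were listed at 0 in HuRAKO replicate 2 and control replicate 2 and well above 0 as a sum in the other mice, so the split runs across the genotypes. In those 2 mice the fourth start was high instead, at 79.6, 150 and 92.5 FPKM in HuRAKO mice against 90.3, 198 and 39.4 FPKM in control mice. The third start summed to 10.8, 33.5 and 3.02 FPKM in HuRAKO mice and 2.63, 43.4 and 13.5 FPKM in control mice, again highest in the replicates 2. The first start had at most 7.24 FPKM. The gene value of Gnas did not share this split, at 41.4 FPKM in HuRAKO replicate 2 and 46.8 FPKM in control replicate 2, both within the range of the other 4 mice. The listed transcripts of Gnas summed to 3.55 to 5.19 times the gene FPKM, those of Prkacb to 2.07 to 2.16 times, those of Gnai2 to 1.72 to 1.93 times and those of Adcy6 to 0.395 to 0.660 times. The 2 tables are thus not on 1 scale for these genes, and a listed 0 can be a failed estimate. The order of levels and the ratios given above rest on the gene values.

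Gnai2 showed a split of the same kind in other mice. Gnai2-201 made up 91.3, 38.2 and 36.0% of the listed Gnai2 transcripts in HuRAKO mice, against 86.9, 38.4 and 38.7% in control mice. HuRAKO replicate 1 and control replicate 1 were set apart, with Gnai2-202 at 14.7 and 16.2 FPKM, against 96.8 to 111 FPKM in the other 4 mice. Mice of the same number thus resembled each other for both genes. Over all transcripts, however, 15 to 19 were under 0.1 FPKM in both mice of a same-numbered pair and over 1 FPKM in the other 4, and 8 to 23 in pairs with different numbers.

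**Figure D4:**
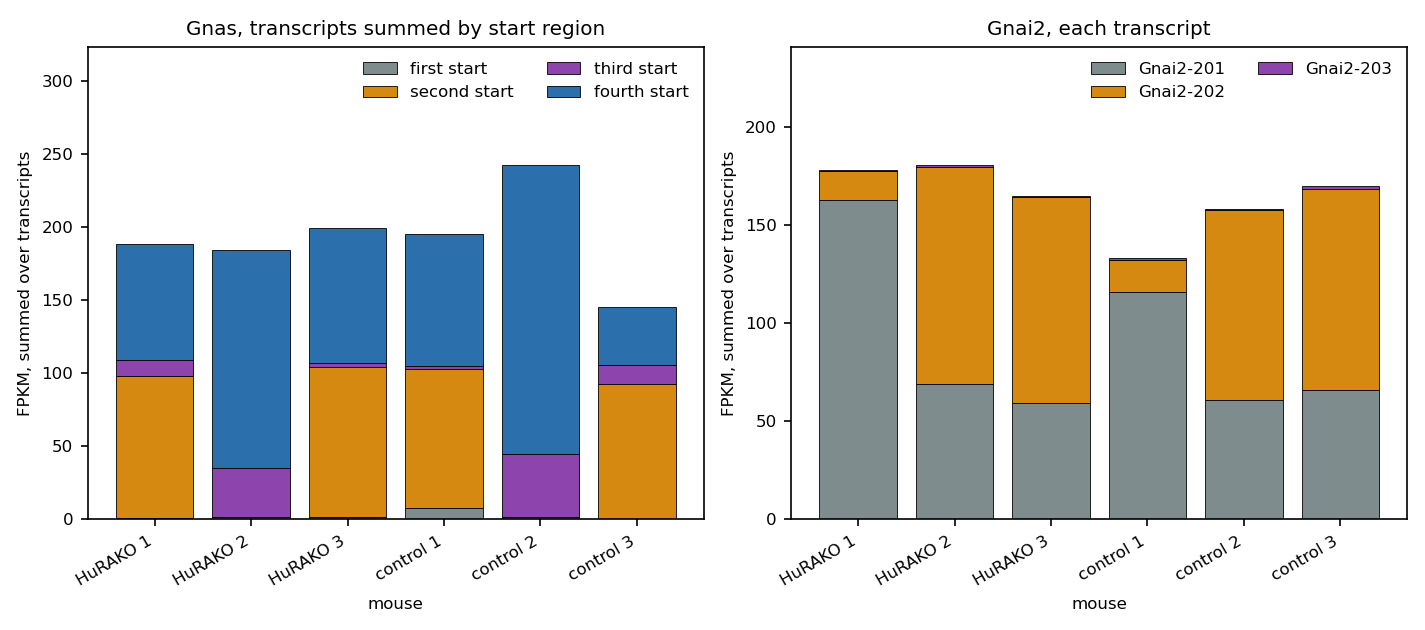
Summed transcript FPKM (y axis, from 0) in each mouse, HuRAKO left of control, for Gnas by start region (left) and Gnai2 by transcript (right). The second Gnas start is at 0 in HuRAKO 2 and control 2, and Gnai2-201 makes up 91.3% and 86.9% in HuRAKO 1 and control 1.

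The rest of the pathway was read from 10 lists with 113 genes, of which 92 were in the table and 91 were tested. By the test over all genes 0 passed, 4 had an unadjusted p under 0.05 (limma), all higher in HuRAKO mice (4.40%, against 8.03% of all genes in both directions), and by p and fold 1 was higher (1 of 91, against 1.27% of all genes) and 0 lower. The median log2 fold change of the 91 was 0.03. The groups did not overlap for 8 of them (8.79%), each higher in HuRAKO mice, against 7.04% of all genes with HuRAKO higher and 14.7% in both directions. Named here after their values were seen, these were the phosphodiesterases Pde2a, Pde1b and Pde8a, the receptor kinases Grk5 and Grk3, the inhibitory subunit Gnai3, its regulator Gpsm1, and Rapgef3 (Epac1), a cAMP sensor that acts beside PKA.

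Pde2a, a phosphodiesterase stimulated by cGMP, was the gene past p and fold. It was at 32.0, 39.0 and 43.8 FPKM in HuRAKO mice, against 24.1, 4.74 and 21.1 FPKM in control mice. All HuRAKO mice were above all controls, and control replicate 2 was far below the rest (log2 fold change 1.40, SE 0.55, unadjusted p = 0.0419, adjusted p = 0.608 from limma). Without control replicate 2 the log2 fold change was 0.73 (unadjusted p = 0.00721 from limma). Without HuRAKO replicate 1, 2 or 3 in turn it was 1.52, 1.39 and 1.30, about as large as with all mice, but the unadjusted p from limma was 0.0701, 0.0940 and 0.105. Over all alternatives the adjusted p of Pde2a was 0.377 or higher. Its transcript Pde2a-204 was listed at 0 in control replicate 2 and at 25.1, 41.4 and 39.8 FPKM in HuRAKO mice, against 8.66 and 20.3 FPKM in the other controls. Its unadjusted p was 0.0576 and its adjusted p 0.757 from limma, and a listed 0 can be a failed estimate. Pde2a-201 overlapped, at 6.98, 12.7 and 20.6 FPKM in HuRAKO mice against 25.8, 5.77 and 8.22 FPKM in control mice (log2 fold change 0.17, adjusted p = 0.974 from limma). Pde2a-212 was above 0 only in HuRAKO replicate 1, at 12.6 FPKM. Rapgef3 was at 9.64, 14.9 and 14.8 FPKM in HuRAKO mice, against 7.56, 9.30 and 8.78 FPKM in control mice (log2 fold change 0.54, unadjusted p = 0.0243, adjusted p = 0.541 from limma). Both genes are known in endothelial cells, whose markers were also higher in HuRAKO mice with no overlap (sums above), and their part in these values was not tested.

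Of the other adenylyl cyclases, 5 of 9 were in the table and 0 passed, with a median log2 fold change of 0.31. Adcy5, the most abundant of them, was at 31.1, 39.8 and 58.7 FPKM in HuRAKO mice, against 34.4, 33.4 and 28.2 FPKM in control mice, with HuRAKO replicate 1 inside the control range (log2 fold change 0.38, adjusted p = 0.755 from limma). Its log2 fold change was 0.14 without HuRAKO replicate 3 and 0.59 without HuRAKO replicate 1, where it passed p and fold (unadjusted p = 0.0333 from limma, with an adjusted p of 0.619 or higher under every alternative). Adcy5 was above Adcy6 in gene FPKM in all 6 mice. Among the 3 further PKA subunit and inhibitor genes, whose median log2 fold change was 0.28, Pkia, a peptide inhibitor of the catalytic subunit, was at 8.11, 8.07 and 6.89 FPKM in HuRAKO mice and 7.83, 8.88 and 11.99 FPKM in control mice. Gnb1, a beta subunit, was at 45.8 ± 1.09 FPKM in HuRAKO mice and 43.5 ± 2.02 FPKM in control mice (mean ± SD, n = 3 each), the most abundant of 12 genes of its list, with 0 passed.

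Of 12 A-kinase anchoring proteins, which tether PKA within the cell, 0 passed, and Akap2 was the most abundant at 49.0 ± 18.9 FPKM in HuRAKO mice and 37.0 ± 2.16 FPKM in control mice. Of the 12 genes of the CREB family and its coactivators 0 passed, and Sik2, a kinase that PKA inhibits, was at 52.1 ± 3.64 FPKM in HuRAKO mice and 54.1 ± 9.99 FPKM in control mice. Rap1b, a small GTPase downstream of Epac, was at 82.4 ± 3.32 FPKM in HuRAKO mice and 86.7 ± 31.2 FPKM in control mice. Grk2, which desensitises beta-adrenergic receptors, was at 20.9 ± 0.672 FPKM in HuRAKO mice and 20.7 ± 3.32 FPKM in control mice.

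Of 11 genes that cAMP is known to induce 0 passed with all mice, with a median log2 fold change of -0.20, or -0.12 without control replicate 3. Some, named after their values were seen, were lower by p and fold under other settings. Without control replicate 1 these were Nr4a1 (-0.99) and Junb (-1.32), and without HuRAKO replicate 3 Cebpb (-0.71). Ppargc1a was lower without control replicate 3 (-0.69) and with array weights (-0.65). Their adjusted p from limma was 0.417 or higher there. Control replicate 1 was the lowest mouse of Nr4a1 and Junb, so leaving it out had to lower their fold changes. Without control replicate 3 Nr4a1 was at -0.10 and Junb at 0.16. With all mice Fos (0.40), Pck1 (0.12), Nr4a3 (0.05) and Fosb (0.01) were above 0 and the others of the list below. Fos was at 1.19 without control replicate 3. Pck1, which makes glycerol phosphate in fat and is induced by cAMP, was at 858, 1039 and 1284 FPKM in HuRAKO mice, against 1115, 1155 and 694 FPKM in control mice. It was lowest in control replicate 3, and the groups overlap (log2 fold change 0.12, adjusted p = 0.923 from limma).

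**Figure D5:**
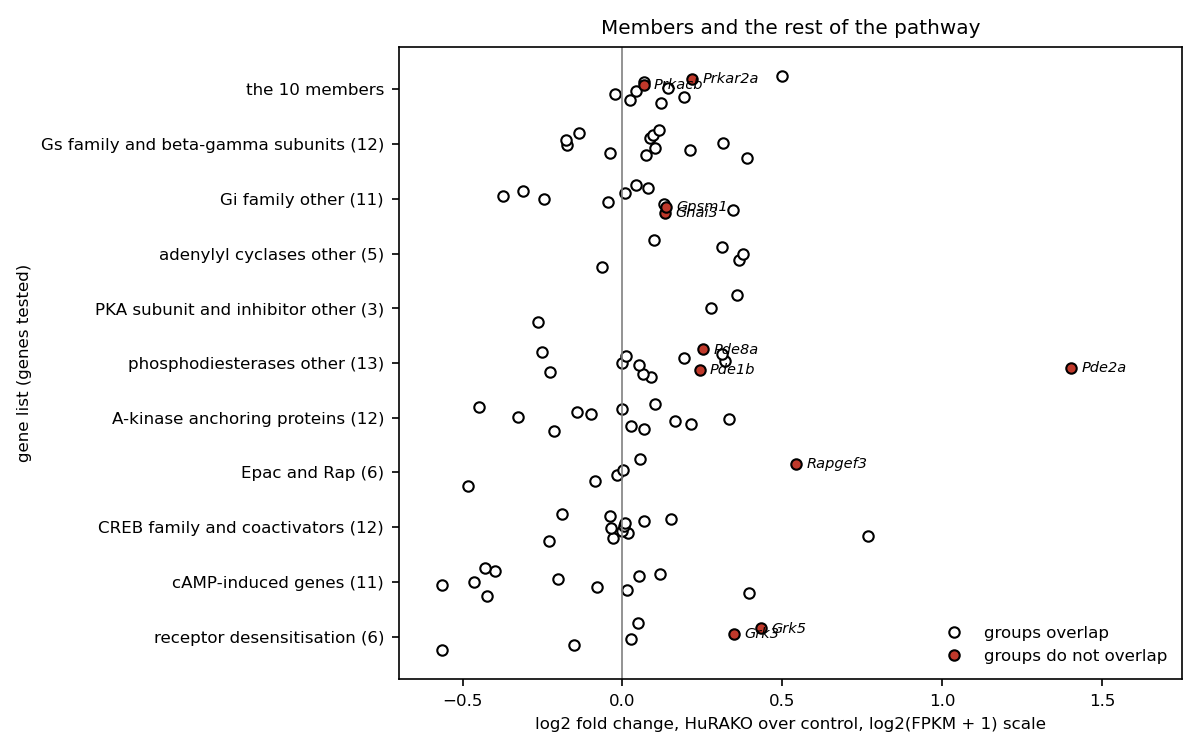
Log2 fold change of HuRAKO over control (x axis, on the log2(FPKM + 1) scale) for the 10 genes (top row) and the 91 other genes of the pathway by list, 1 point per gene. Red points are genes whose groups do not overlap, 2 of the 10 and 8 of the 91, and Pde2a lies farthest out at 1.40.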

How the data were processed

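RNA-seq of epididymal fat from 3 HuRAKO and 3 control mice was used. For each of the 6 mice the authors deposited 2 tables of FPKM values, of genes and of transcripts, and the submitters' processing notes name Bowtie 0.12.2 and GRCm38. The program that estimated FPKM is not given in the sources used here. The labels name another library kit and another instrument than the methods do. An empty line was left out of each table, and 0 columns of values belong to no sample. No whole reads could be read from the low values, so depth is unknown.

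Mice were grouped by their labels. Features whose mean over the mice reached 0.5 FPKM were fitted as log2(FPKM + 1) with limma 3.58.1 in R 4.3.3, and p-values (two-sided) were adjusted over all features by the Benjamini-Hochberg method. A further rule, an unadjusted p under 0.05 with a fold over 1.5, follows the study. A fold change on the log2(FPKM + 1) scale understates that of low genes. Single values and ratios were compared by two-sided exact permutation tests. If replicates are not independent animals, p-values measure only the spread between these samples. AU-rich elements were searched in GENCODE M21, taking the longest 3′-UTR annotated for a gene, which need not be the one used in fat. All 10 genes matched that annotation in version and position. The fit was tried on simulated data, with changes set only in abundant genes whose spread was below the median. That trial does not cover variable genes such as Prkar2b. Python 3.11.15, pandas 2.3.3, scipy 1.17.1 and matplotlib 3.10.9 were used.

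The 10 genes, the lists and the tests were chosen with earlier results of these data known. Named genes were the 10, from each other list the most abundant gene and any past p and fold, the main transcript of each gene, and the 4 genes most like the most variable of the 10. Others are named as chosen after their values were seen.

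Both groups use the replicate numbers 1 to 3, whose meaning the labels leave unsaid. After subtraction of the group means, the r over genes between mice with the same number was 0.101, 0.175 and 0.220. Each exceeded 0.1, the limit above which the numbers pair the mice, but HuRAKO replicate 2 and control replicate 1 also reached 0.106. Printed errors and p-values are from fits without pairs unless the replicate block is named. Alternatives were another pseudocount, other filters, other scalings of the samples, other variance models, a block for the replicate number and the omission of each mouse. Scaling to adipocyte markers was added after the data were seen.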

Additional observations from a re-analysis of the deposited data

How the results depend on the processing

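Under 15 alternatives 0 of the 10 genes had an unadjusted p under 0.05 (lowest 0.0536), so the absence of calls did not depend on these settings. With 3 mice a group the intervals are wide, and without pairs those of Adcy6, Prkaca, Prkar2b and Pde3b include a fold over 1.5 with HuRAKO higher. With the replicate block those of Prkar2b (-0.32 to 1.31) and Pde3b (-0.70 to 0.79) still do. Those of Adcy6 (-0.20 to 0.44) and Prkaca (-0.24 to 0.53) then do not. Gnai2, Prkacb, Prkar1a, Prkar2a and Prkar2b kept their direction throughout. The other signs turned under some settings. Gnas was at 0.00794 after rescaling to a common sum, Gnai1 at -0.13 with array weights and -0.00778 relative to adipocyte markers, and with array weights Adcy6 was at -0.0317 and Pde3b at -0.11. Of other genes, Grk2 was at -0.00595 relative to adipocyte markers, Pck1 at -0.0280 with array weights, and Rap1b at 0.0152 after rescaling and 0.18 with array weights.

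Leaving out each mouse gave log2 fold changes of -0.12 to 0.0722 for Gnas, -0.20 to 0.15 for Gnai1, -0.13 to 0.30 for Adcy6, -0.0416 to 0.27 for Prkaca and -0.19 to 0.18 for Pde3b. Among transcripts it gave -0.19 to 0.38 for Adcy6-205, -0.20 to 0.15 for Gnai1-201, -0.27 to 0.46 for Gnai2-201, -0.83 to 0.56 for Gnas-207, -0.19 to 0.18 for Pde3b-201, -0.0410 to 0.27 for Prkaca-201 and -0.16 to 0.0513 for Prkacb-201. It gave -0.0512 to 0.15 for Grk2, -0.12 to 0.26 for Pck1, -0.15 to 0.10 for Sik2 and -0.19 to 0.26 for Rap1b. The difference in regulatory over catalytic level was -0.00652 to 0.46 and that in the percentage of Prkaca -1.21 to 1.93 percentage points. Of the other pathway genes 0 to 3 were higher and 0 to 3 lower by p and fold. Pde2a lost its call without HuRAKO replicate 1, 2 or 3 in turn (1.52, 1.39 and 1.30), with a pseudocount of 0.1 (1.49, unadjusted p = 0.0529) and without moderation (1.40, unadjusted p = 0.113), at a fold change about as large as the 1.40 of the limma fit with all mice. Adcy5 ranged from 0.14 to 0.59 without each mouse.

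Over all genes, 1 passed an adjusted p under 0.05. This count was 0 with a pseudocount of 0.1 and without moderation, 3 after rescaling to a common sum and with array weights, 2 relative to adipocyte markers and 0 to 3 without each mouse. By p and fold 163 were higher and 174 lower. Without moderation these were 102 and 111, with a pseudocount of 0.1 the lower count was 329, and without each mouse they were 180 to 211 and 171 to 314. The causes were not tested. With the replicate block the count at an adjusted p under 0.05 was 0, Prkar2b was at 0.50, and the block changed no call among the 10 genes or the other genes of the pathway.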
